A study of Mus musculus with 7 samples.

Results

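Microtubules were followed through 79 genes expressed in mouse islets, the small groups of hormone-producing cells in the pancreas. The 79 are tubulins, kinesins, cytoplasmic dynein subunits, stathmins, end-binding proteins and microtubule-associated proteins (MAPs). They were taken by symbol from 34245 listed genes. Of 91 genes whose symbols matched, 79 reached 0.37 RPM (a read number scaled by library depth) in at least 2 libraries, and those 79 are the members described here. The members were chosen by name and by this level, so their being expressed is no finding. Just inside the limit lay Kif26b, with a mean of 0.380 RPM over the 7 libraries, and just outside it lay Stmn4 at 0.212 and Dynlrb2 at 0.203 RPM. The other 10 names below the limit were Tuba3a, Tuba3b, Tubb1, Kif2b, Kif2c, Kif6, Kif7, Kif14, Kif18b and Kif16bos. The level was reached in all 7 libraries by 72 members, and 0 members reached it in fewer than 2 KO libraries. By role the members were 5 alpha-tubulins, 7 beta-tubulins, 2 gamma-tubulins, 33 kinesin-family names, 15 subunits of cytoplasmic dynein, 3 stathmins, 3 end-binding proteins, 7 structural MAPs and 4 regulators of plus ends and the lattice.

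Whole islets came from 5 KO and 2 Control mice of the C57BL/6J strain, aged 8 weeks. The KO mice carried a floxed allele of Abca12, an ABC-family lipid transporter, deleted with Rip1-Cre to give the tm1d allele. Rip1-Cre, a Cre recombinase under an insulin promoter, acts in insulin-producing beta cells, so the other cells of a KO islet are not its target. All 7 mice carried Rip1-Cre, with Abca12 intact in Control 1 and 1 floxed allele in Control 2. The column headers end in f for KO 1 and KO 2 and in m for the other 5 libraries, read here as female and male.

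The libraries held 23923000 to 43117300 reads each, by the step between their values, and 54.6% to 57.0% of them fell in listed genes. The targeted gene, Abca12, had 0 reads in every library, Control included, so it checks no label. The limit that a count of 0 allows, 3 reads, is worth 0.0696 to 0.125 RPM by library. Pearson correlations between libraries across genes lay between 0.980 and 0.994. Summed markers of acinar cells, which make digestive enzymes, were 1629 to 10029 RPM in KO against 386 and 791 RPM in Control, with KO 2 and KO 3 highest and 12 of 12 markers above both controls. Summed delta and PP cell markers were also higher in each KO library (1718 to 2672 RPM, against 1298 and 1586 RPM in Control). Summed endothelial markers were lower (74.7 to 113 RPM, against 124 and 151 RPM in Control). Summed markers of dividing cells were also lower (9.73 to 11.8 RPM, against 12.04 and 20.4 RPM in Control). Of 8 dividing cell markers tested, 5 were lower in KO and 3 higher. Beta cell markers overlapped between the groups, at 58460.3 to 86619 RPM in KO and 68520.5 and 75775 RPM in Control. In such bulk samples fewer cells of a type and less RNA per cell cannot be told apart.

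A microtubule is a hollow tube of alpha- and beta-tubulin dimers that grows and shrinks at its ends. Its subunits come from several genes, called isotypes, whose proteins are folded by the chaperonin CCT with prefoldin and tubulin cofactors before they assemble. Gamma-tubulin seeds new microtubules, stathmins bind free dimers, MAPs and end-binding proteins sit on the polymer, and kinesins and dynein walk along it with cargo. In beta cells microtubules form a dense network on which insulin granules are carried, and this network is known to affect how many granules reach the plasma membrane. Tubulin mRNAs are also known to be degraded when free tubulin dimers are in excess, a feedback that involves the ribosome-associated factor TTC5.

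Start regions are shown for 3 of the tubulins that lay higher in KO islets, since 10 isotypes encoded on 6 chromosomes lay above both controls. Each is 300 bases, from 250 before to 50 after the annotated start, from RefSeq on GRCm38.p6, and is written 5′ to 3′ along the gene's own strand. Tuba1b is at chr15:98934341-98934640 (minus strand), Tubb4b at chr2:25224653-25224952 (minus strand) and Tubb5 at chr17:35838252-35838551 (minus strand). Capitals mark exact matches to 3 short motifs, searched on both strands, and no marked matches overlap. One is the CCAAT box, with just those letters. Another is the GC box, with the letters GGGCGG. The last is the TATA box, with the letters TATAAA.
Tuba1b: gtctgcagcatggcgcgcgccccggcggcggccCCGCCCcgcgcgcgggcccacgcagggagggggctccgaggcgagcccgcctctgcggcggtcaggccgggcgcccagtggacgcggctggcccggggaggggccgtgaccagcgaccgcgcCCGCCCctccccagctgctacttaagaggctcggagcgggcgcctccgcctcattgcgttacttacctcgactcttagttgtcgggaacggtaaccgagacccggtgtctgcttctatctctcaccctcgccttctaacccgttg
Tubb4b: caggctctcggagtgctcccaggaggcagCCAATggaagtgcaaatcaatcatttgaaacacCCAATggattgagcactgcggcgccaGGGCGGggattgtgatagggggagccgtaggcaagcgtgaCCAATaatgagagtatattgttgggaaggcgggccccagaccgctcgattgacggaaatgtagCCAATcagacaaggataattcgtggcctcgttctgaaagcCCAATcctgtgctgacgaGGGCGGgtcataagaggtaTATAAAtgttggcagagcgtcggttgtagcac
Tubb5: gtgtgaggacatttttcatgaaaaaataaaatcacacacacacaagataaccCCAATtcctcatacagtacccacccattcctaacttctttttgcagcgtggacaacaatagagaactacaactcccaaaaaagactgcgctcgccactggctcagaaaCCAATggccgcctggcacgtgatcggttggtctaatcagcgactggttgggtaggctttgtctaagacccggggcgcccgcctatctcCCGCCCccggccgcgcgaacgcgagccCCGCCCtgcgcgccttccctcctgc
Tubb4b held 5 matches to CCAAT, 2 to the GC box and 1 to TATAAA in this window. Tubb5 held 2 matches to CCAAT and 2 to the GC box, and Tuba1b held 2 to the GC box. Among the 10 tubulins above both controls, 8 had a start region among those kept here, and Tubb2b and Tubb6 had none. The region of Tubb6 was removed by an exclusion set by hand, so its absence says nothing about the source. CCAAT stood in 4 of these 8, the GC box in 6 and TATAAA in 2. Tubb4a, 1 of the 8, held 0 matches to each motif. Of the tubulins not above both controls, Tubb3 held 1 match to CCAAT and 2 to the GC box, and Tuba8 held 0 to each motif. Over all 32851 start regions of the same length, counted without the exclusion set by hand, 37.4% held CCAAT, 35.7% the GC box and 13.6% TATAAA. The matches are letters in a window and carry no measure of binding.

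Messenger RNA of 10 of the 12 alpha- and beta-tubulin isotypes was higher in each of the 5 KO libraries than in both Control libraries, while motors, MAPs, end-binding proteins and gamma-tubulins showed no common shift. Ratios of KO to Control means for these 10 ran from 1.28 (Tubb2a) to 1.61 (Tubb4a), and no test compared the isotypes with each other. The test was limma on log2(RPM + 1) across 16212 genes, two-sided, with p-values adjusted by the Benjamini-Hochberg method. Adding 1 RPM pulls the fold changes of scarce genes towards 0. At an adjusted p of 0.05 it called 10 genes in all (0.0617% of those tested), 7 of them higher in KO (0.0432%) and 3 lower (0.0185%), and 0 of the 79 members were among them. The lowest adjusted p of a member was 0.0643, so the values below are differences that did not pass the threshold over all genes. With robust empirical Bayes moderation in the same limma test, 4 members passed (Tubb4b, Tuba1b, Tuba1a and Tubb5, adjusted p of 0.0260, 0.0316, 0.0489 and 0.0441), against 0.259% of all genes tested.

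Without adjustment, 19 members had a limma p under 0.05, 12 of them higher and 7 lower in KO, where the same limit took 10.8% of all genes, 4.64% higher and 6.16% lower. The 5 KO values lay above both Control values for 15 members and below both for 8. Over all genes tested the groups did not overlap for 15.2%, with KO above both controls for 6.75% and below both for 8.41%. The median log2 fold change of the members was -0.02, against -0.01 over all genes, and 39 members lay within 0.1 of 0. Above 0 lay 35 members and 48.3% of all genes. The 12 alpha- and beta-tubulins had a median of 0.39. The other 67 members had a median of -0.04, with 25 above 0 and 42 below 0. A log2 fold change of at least 0.3 was seen in 10 of the 12 tubulins, in 2 of the other 67 members and in 4.53% of all genes.

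**Figure D1:**
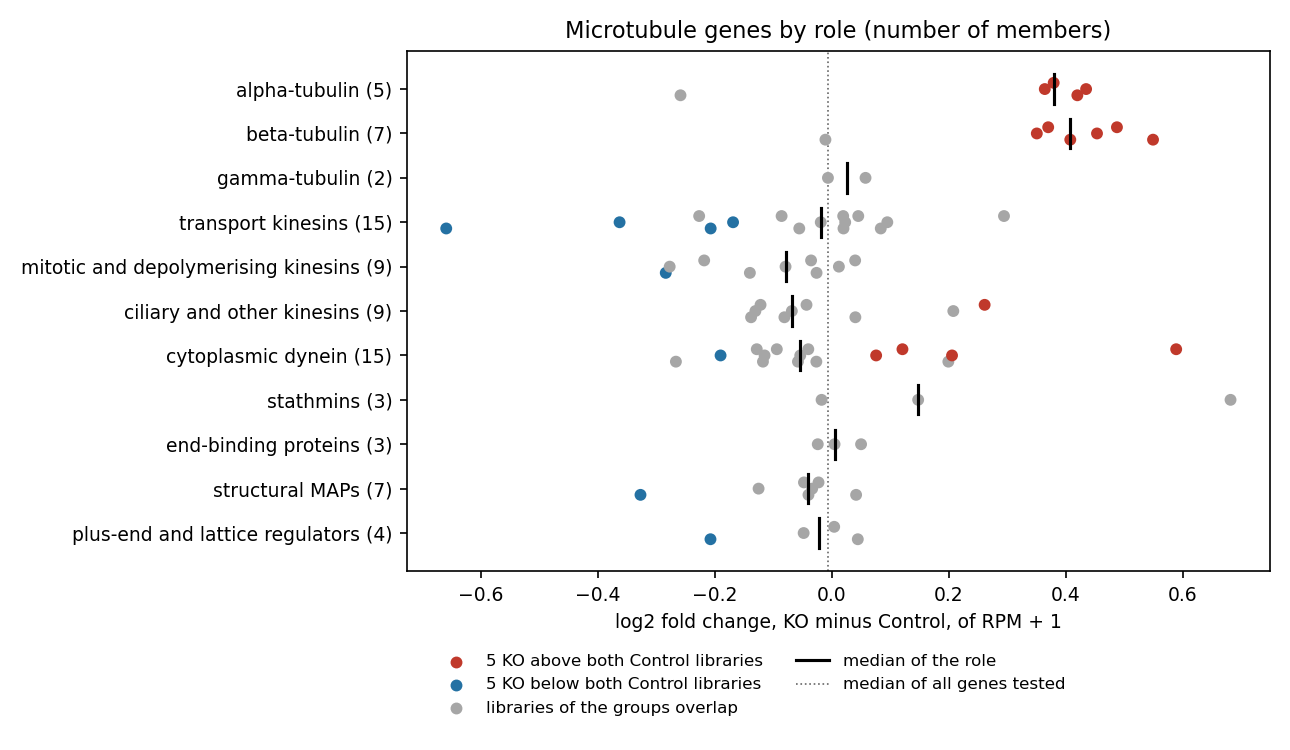
Log2 fold change (KO minus Control, on RPM + 1) of each of the 79 members, by role, from 5 KO and 2 Control libraries. Red and blue points are members whose 5 KO libraries lie above or below both Control libraries, bars are role medians, and the dotted line is the median of all genes tested. Red points gather in the alpha- and beta-tubulin rows, whose medians are 0.38 and 0.41.

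Among the alpha-tubulins, Tuba1b (ENSMUSG00000023004.8, chromosome 15, 98931425 to 98934565, minus strand, GRCm38) is an isotype made by most cells. It had 71.2, 72.3, 66.1, 75.4 and 71.3 RPM in KO 1 to KO 5, against 48.8 and 56.3 RPM in Control 1 and Control 2. Every KO library lay above both controls, and the controls differed from each other nearly as much as the KO libraries did. The log2 fold change was 0.43 (SE 0.08, adjusted p = 0.0643 by limma), with means of 71.2 ± 3.36 RPM in KO and 52.5 ± 5.31 RPM in Control (SD, n = 5 and 2).

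Tuba1a, the isotype prominent in developing neurons, had 126, 138, 135, 147 and 146 RPM in KO, against 106 and 106 RPM in Control. The KO libraries spread more widely than the controls, and the lowest of them, KO 1, was still above both. The log2 fold change of Tuba1a was 0.38 (SE 0.07, adjusted p = 0.0821 by limma).

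Tuba4a, an isotype whose protein lacks the genetically encoded terminal tyrosine of the Tuba1 isotypes, had 100.4, 95.6, 103, 118 and 109 RPM in KO, against 80.0 and 82.5 RPM in Control. The groups did not overlap, and the log2 fold change was 0.36 (SE 0.08, adjusted p = 0.119 by limma). Tuba1c had 27.04, 31.9, 24.2, 27.5 and 26.9 RPM in KO and 21.5 and 19.02 RPM in Control, again without overlap (log2 fold change 0.42, adjusted p = 0.145 by limma). Tuba8 was the scarcest alpha-tubulin and the exception among them. It had 0.623 to 1.04 RPM in KO, with a median of 0.843, against 1.00 and 1.36 RPM in Control, so the groups overlapped (log2 fold change -0.26, adjusted p = 0.586 by limma).

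Among the beta-tubulins, Tubb4b (ENSMUSG00000036752.4, chromosome 2, 25222160 to 25224702, minus strand, GRCm38) is a widely expressed isotype that is also a main component of cilia. It had 143, 147, 147, 175 and 154 RPM in KO, against 113 and 109 RPM in Control. KO 4 was the highest library, and the other 4 KO libraries were close together, all above both controls. The log2 fold change was 0.45 (SE 0.08, adjusted p = 0.0663 by limma), with means of 153 ± 12.8 RPM in KO and 111 ± 2.81 RPM in Control (SD, n = 5 and 2).

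Tubb5, a widely expressed isotype, had 139, 122, 122, 142 and 123 RPM in KO, against 94.3 and 99.9 RPM in Control. KO 1 and KO 4 stood above the other 3 KO libraries, which were near each other and above both controls. Its log2 fold change was 0.41 (SE 0.08, adjusted p = 0.0821 by limma).

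The near-identical pair Tubb2a and Tubb2b, which lie next to each other on chromosome 13, showed the same direction. Tubb2a had 48.5, 50.6, 49.3, 54.0 and 49.8 RPM in KO, against 43.2 and 35.7 RPM in Control (log2 fold change 0.35, adjusted p = 0.132 by limma). Tubb2b had 10.5, 8.19, 7.94, 8.83 and 7.68 RPM in KO, against 5.98 and 5.70 RPM in Control (log2 fold change 0.49, adjusted p = 0.196 by limma). The groups did not overlap for either gene. Without Control 1, in a fit where the lone control is assumed to vary like the KO libraries, Tubb2a had a log2 fold change of 0.48. Without Control 2 the same fit gave 0.22.

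Tubb6 had 26.1, 32.3, 25.9, 32.1 and 27.5 RPM in KO, against 21.8 and 22.1 RPM in Control (log2 fold change 0.37, adjusted p = 0.204 by limma). Tubb4a, an isotype best known from nerve tissue and oligodendrocytes, had 9.35, 6.95, 8.46, 5.39 and 5.10 RPM in KO, against 4.14 and 4.64 RPM in Control. KO 4 and KO 5 were close to the controls and KO 1 was the farthest from them, so the mean log2 fold change of 0.55 (SE 0.20, adjusted p = 0.336 by limma) covers a wide spread. Tubb3, the isotype used as a marker of neurons, was the beta-tubulin that did not follow the others. It had 11.99, 16.5, 15.4, 15.9 and 19.7 RPM in KO and 14.6 and 17.2 RPM in Control, means of 15.9 ± 2.74 and 15.9 ± 1.85 RPM (SD, n = 5 and 2), with both Control values inside the KO range.

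**Figure D2:**
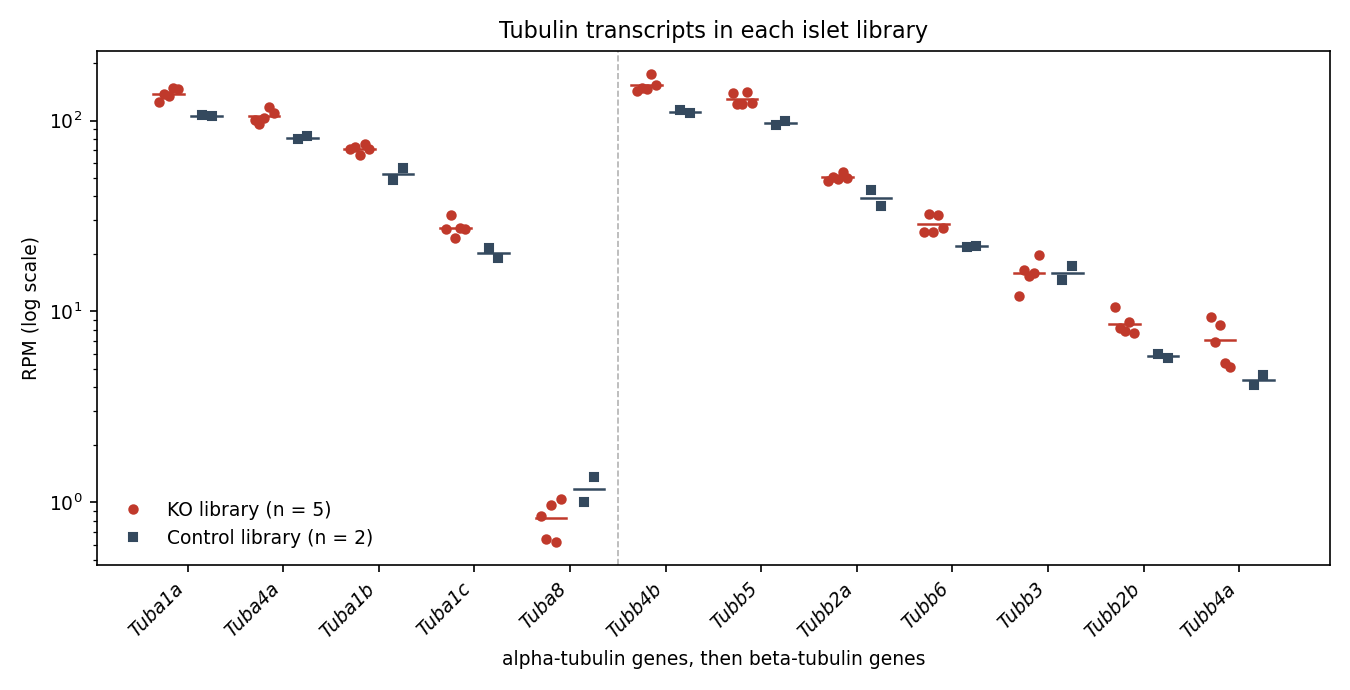
RPM on a log scale of the 5 alpha-tubulin genes (left) and the 7 beta-tubulin genes (right) in each library, with KO circles left of Control squares and a line at each group mean. For 10 genes the lowest KO library is above the highest Control library, and Tuba8 and Tubb3 are the exceptions.

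Alpha-tubulin genes of the Tuba1 group share nearly all of their coding sequence, so the split of reads among them depends on how the authors' counting placed reads that match several genes. The same holds for Tubb2a and Tubb2b. A sum over all isotypes does not move when reads pass from one isotype to another. Summed alpha- and beta-tubulin RNA was 713, 722, 705, 802 and 741 RPM in KO, against 555 and 559 RPM in Control, a ratio of means of 1.32. The 2 controls were close together, and KO 4 was the highest library. The alpha sum was 343 ± 18.1 RPM in KO and 261 ± 4.98 RPM in Control, and the beta sum was 393 ± 22.6 RPM in KO and 296 ± 1.92 RPM in Control (SD, n = 5 and 2). Over the 7 libraries and per kilobase of exon, Tuba1a (71.6), Tubb4b (67.7), Dynll2 (66.6) and Kif5b (41.1 RPM per kilobase) had the highest mean levels of the 79 members. Per kilobase, alpha over beta was 0.911 ± 0.0281 in KO and 0.915 ± 0.0343 in Control, so the balance between the partners of the dimer did not differ beyond its spread.

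The makeup of each pool was compared per kilobase of exon, since levels of different genes are comparable only per length. Tuba1a was the largest share of alpha-tubulin RNA in every library, at 49.3% ± 1.17 in KO and 49.8% ± 1.24 in Control (SD, n = 5 and 2). Tuba1b followed with 25.8, 24.8, 23.7, 24.2 and 23.7% in KO, against 22.3 and 25.1% in Control. The Control values bracketed most of the KO values, and the difference in means of 0.75 percentage points had an exact two-sided permutation p of 0.476. Tuba4a held 18.3% ± 0.954 in KO and 18.6% ± 0.0312 in Control.

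Within the beta pool Tubb4b was the largest share, at 41.2, 42.2, 43.0, 44.6 and 43.6% in KO and 41.5 and 41.1% in Control. Its share was higher in 4 of 5 KO libraries than in both controls, with a difference in means of 1.59 percentage points and an exact two-sided permutation p of 0.190. The smallest p that 5 against 2 libraries allow is 0.0476. Tubb5 held 22.8% ± 1.35 in KO and 22.6% ± 1.32 in Control, and Tubb2a held 18.3% ± 0.387 in KO and 18.97% ± 2.196 in Control. Tubb3 took 3.86 to 6.23% of the beta pool in KO, against 5.98 and 7.23% in Control, so a gene at a level RPM held a smaller mean share of a larger pool, with overlapping groups.

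**Figure D3:**
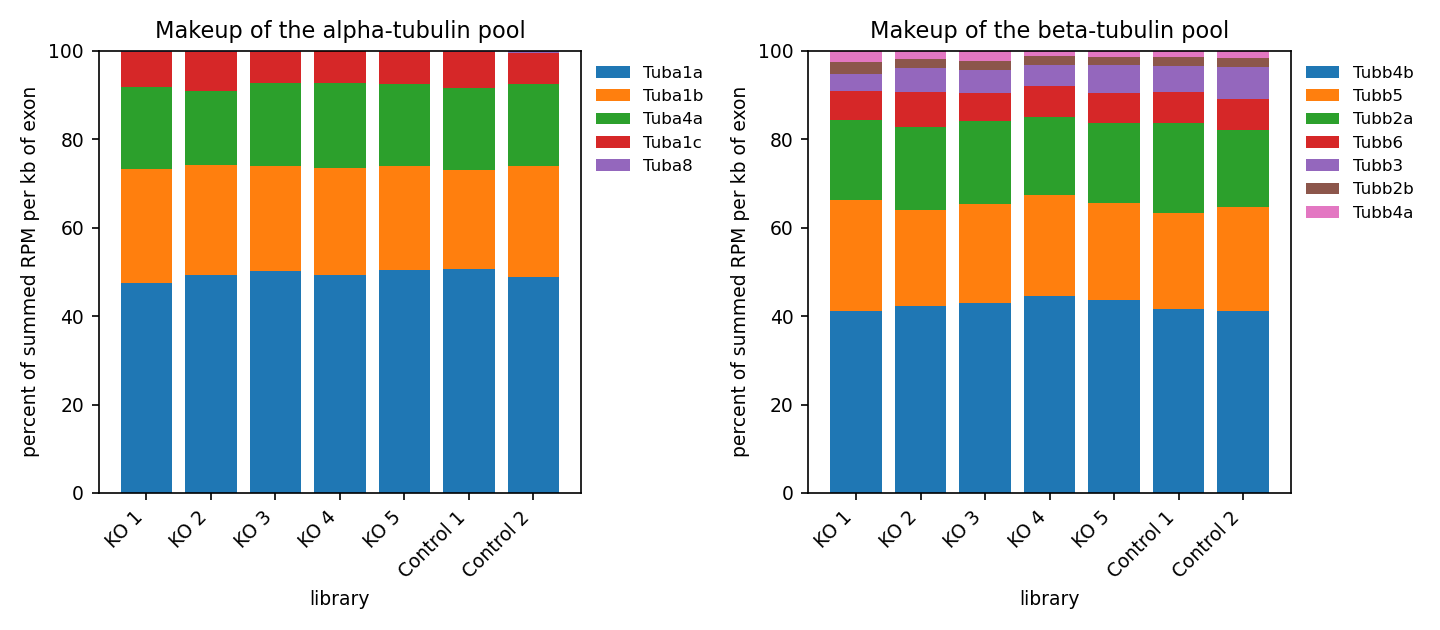
Percent of summed RPM per kilobase of exon taken by each isotype in the alpha-tubulin pool (left panel) and the beta-tubulin pool (right panel), with a stacked bar for each library, KO left of Control. The bars are alike in every library: Tuba1a takes 47.4 to 50.6% of the alpha pool and Tubb4b 41.1 to 44.6% of the beta pool.

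Other measures are set beside the tubulins here. Within the KO group, KO 4, with the highest tubulin sum, had the lowest acinar sum (1629 RPM), and KO 2 and KO 3, with acinar sums of 9992 and 10029 RPM, had tubulin sums of 722 and 705 RPM. Without KO 2 and KO 3 the tubulin median was 0.41. The 10 of 12 isotypes above both controls stay higher whichever KO libraries are left out. In the KO libraries kept, acinar sums were 1629 to 2901 RPM, still above the 386 and 791 RPM in Control. Delta and PP cell markers, given above, lay above both controls as the tubulins did. Within KO their sum was lowest in KO 4 (1718 RPM) and highest in KO 1 (2672 RPM). Summed endothelial markers and summed markers of dividing cells lay below both controls. Alpha cell markers had 5 of 5 log2 fold changes above 0 (median 0.45, against 0.39 for the tubulins), with summed levels of 2461 to 7131 RPM in KO and 3048 and 3195 RPM in Control. Stellate cell and fibroblast markers had 7 of 7 tested below 0 (median -0.96), with sums of 26.8 to 38.8 RPM in KO and 37.7 and 127 RPM in Control. Of them, 5 had an unadjusted limma p under 0.05, where 6.16% of all genes were lower at that limit. Duct markers had 6 of 8 above 0 (median 0.24), and leukocyte markers had 5 of 7 below 0 (median -0.24). With the mean log2 level of the acinar markers as a covariate in limma, the tubulin median was 0.42, with 11 of 12 isotypes higher in KO. All 12 acinar markers lay above both controls in each KO library, so that fit cannot tell acinar content and group apart. The part of these cell type markers in the tubulin difference was not tested. With the 5 male libraries alone, 3 KO against 2 Control, the tubulin median was also 0.41.

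The gamma-tubulins, which nucleate microtubules at the centrosome and elsewhere, did not share the shift. Tubg1 had 32.2, 27.9, 33.3, 36.5 and 32.98 RPM in KO, against 32.3 and 32.97 RPM in Control. The controls fell within the KO range, and the log2 fold change was -0.01 (adjusted p = 0.987 by limma). Tubg2 had 11.995 ± 1.25 RPM in KO and 11.6 ± 2.61 RPM in Control (SD, n = 5 and 2). Of 19 genes of the gamma-tubulin ring complex and of augmin, the complex that branches microtubules, 0 were called. Above both controls lay 1 (Tubgcp2, log2 fold change 0.11), against 6.75% of all genes, and the list median was -0.02. The 2 genes of that list with the lowest p were Akap9 (log2 fold change -0.15, adjusted p = 0.578 by limma) and Tubgcp5 (log2 fold change -0.19, adjusted p = 0.592 by limma).

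Stathmins, which hold free tubulin dimers, had means of 7.28 (Stmn3), 2.04 (Stmn1) and 0.361 RPM per kilobase (Stmn2) over the 7 libraries. Stmn2, best known from growing neurons, had 2.91, 3.94, 2.10, 2.12 and 0.789 RPM in KO, against 1.92 and 0.362 RPM in Control. The groups overlapped and both were widely spread, so its log2 fold change of 0.68 (SE 0.35, adjusted p = 0.513 by limma), the highest of any member, is imprecise. It was 0.13 without Control 2 and 1.23 without Control 1. The neuron markers Prph (2.57 ± 0.892 RPM in KO and 1.25 ± 1.77 RPM in Control) and Nefl (1.07 ± 0.456 RPM in KO and 0.355 ± 0.502 RPM in Control) also overlapped between the groups. Both had 0 reads in Control 2, the library with the lowest Stmn2, and log2 fold changes of 0.89 and 0.63, and their part in the Stmn2 values was not tested. Stmn1 had 4.04 ± 0.931 RPM in KO and 3.59 ± 1.36 RPM in Control, and Stmn3 had 8.20 ± 1.37 RPM in KO and 8.45 ± 2.84 RPM in Control (SD, n = 5 and 2).

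Among kinesins that carry cargo, 15 members had a median log2 fold change of -0.02, with 4 below both controls and 0 above both, against 8.41% and 6.75% of all genes. Kif5b, the kinesin-1 heavy chain known to move insulin granules, had the highest level among them both in RPM and per kilobase, at 362, 339, 315, 308 and 323 RPM in KO and 355 and 296 RPM in Control. The groups overlapped (log2 fold change 0.02, adjusted p = 0.959 by limma). Kif1a, a kinesin-3 motor for dense-core vesicles, had 199.6, 199.97, 196, 236 and 198 RPM in KO, against 252 and 229 RPM in Control. The other 4 KO libraries were within a few RPM of each other below both controls, while KO 4 lay between the controls. Its log2 fold change was -0.23 (SE 0.08, adjusted p = 0.349 by limma). Kif1b, a related kinesin-3, had 158, 151, 152, 159.5 and 146 RPM in KO, against 183 and 171 RPM in Control, without overlap (log2 fold change -0.21, SE 0.07, adjusted p = 0.263 by limma).

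Kif21b, a kinesin that tracks and pauses growing plus ends, had 2.57, 2.52, 3.60, 3.11 and 2.62 RPM in KO, against 4.14 and 6.24 RPM in Control. All KO values were below both controls, and the controls differed from each other by more than the whole KO range. The log2 fold change of -0.66 (SE 0.17, adjusted p = 0.171 by limma) was the lowest of the 79 members, and it was -0.41 without Control 2 and -0.91 without Control 1. Kif13a, a kinesin-3 of endosomal and Golgi-derived carriers, had 11.9, 11.2, 12.4, 12.4 and 14.2 RPM in KO, against 17.3 and 15.2 RPM in Control, also without overlap (log2 fold change -0.36, SE 0.11, adjusted p = 0.239 by limma). Kif5c, a kinesin-1 heavy chain with a lower level, had 33.5 ± 2.05 RPM in KO and 37.7 ± 2.11 RPM in Control (SD, n = 5 and 2) and was the fourth transport kinesin below both controls. Kif21a had 106 ± 5.74 RPM in KO and 105 ± 19.3 RPM in Control (SD, n = 5 and 2).

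Mitotic and depolymerising kinesins were scarce. Of 13 names, 9 reached the level, and Kif2a, a microtubule depolymeriser that resting cells also express, led them with 17.8 ± 1.44 RPM in KO and 18.9 ± 1.94 RPM in Control (SD, n = 5 and 2). Kif20a followed with 5.37 ± 0.579 RPM in KO and 5.51 ± 0.469 RPM in Control. Kif22 had 1.55 ± 0.199 RPM in KO and 1.81 ± 0.377 RPM in Control, with overlap. Kif11, the spindle motor Eg5, had 0.345, 0.639, 0.946, 0.696 and 0.765 RPM in KO, against 0.752 and 1.33 RPM in Control, with overlap. Kif18a, a spindle motor that dampens chromosome movements, had 0.230, 0.188, 0.552, 0.513 and 0.510 RPM in KO, against 0.752 and 0.633 RPM in Control. It was the 1 mitotic kinesin below both controls (log2 fold change -0.28, adjusted p = 0.556 by limma), and it rests on 5 to 22 reads per library. Summed markers of dividing cells, given above, lay below both controls as well, with Bub1, Plk1 and Aurkb at 0 reads in at least 1 library; their part in the Kif18a values was not tested.

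Among the ciliary and other kinesins, Kif12 had the highest level in RPM and per kilobase, with 123, 121, 88.3, 104 and 105 RPM in KO and 115 and 94.7 RPM in Control. The controls lay within the KO range. Kif1bp, a protein that binds kinesins and is no motor itself, had 35.98 ± 1.71 RPM in KO and 38.1 ± 1.63 RPM in Control (SD, n = 5 and 2). Kif19a had 12.6 ± 1.67 RPM in KO and 13.96 ± 1.37 RPM in Control, with overlap. Kif27, a relative of the Hedgehog pathway kinesin Kif7, had 0.804, 0.864, 0.683, 0.843 and 0.603 RPM in KO, against 0.543 and 0.392 RPM in Control. That is above both controls in each KO library but on 13 to 26 reads per library (log2 fold change 0.26, adjusted p = 0.534 by limma). Summed genes of motile and primary cilia overlapped between the groups, at 32.7 to 38.5 RPM in KO and 34.1 and 41.0 RPM in Control.

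Cytoplasmic dynein, the motor towards minus ends, had 15 members with a median log2 fold change of -0.05. Its heavy chain Dync1h1 had the highest RPM of all members, at 363, 349.7, 398, 453 and 329 RPM in KO and 427 and 391 RPM in Control. KO 4 was above both controls and KO 1, KO 2 and KO 5 below both, so the groups overlapped (log2 fold change -0.12, adjusted p = 0.758 by limma). Per kilobase of exon the light chain Dynll2 stood higher than this long gene, at 66.6 against 24.7 RPM per kilobase over the 7 libraries. Dync1i2 had 59.9 ± 3.68 RPM in KO and 56.7 ± 0.0155 RPM in Control (log2 fold change 0.08, adjusted p = 0.767 by limma). Its KO libraries lay above both controls by a narrow gap, with 56.79 RPM in KO 2 against 56.75 RPM in Control 2. Dync2h1, the heavy chain of the dynein that works inside cilia, had 33.6, 31.6, 33.4, 37.8 and 29.6 RPM in KO, against 44.9 and 35.7 RPM in Control, with overlap (log2 fold change -0.27, adjusted p = 0.388 by limma). Without Control 1 that value was -0.11, and without Control 2 it was -0.43.

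Light chains of dynein differed among themselves. Dynll1, a light chain that also binds many other partners, had 36.2, 34.0, 33.9, 35.1 and 40.9 RPM in KO, against 29.6 and 32.5 RPM in Control, without overlap (log2 fold change 0.21, adjusted p = 0.423 by limma). Its close relative Dynll2 had 181 ± 4.01 RPM in KO and 185 ± 6.91 RPM in Control (SD, n = 5 and 2). Dynlt1b, a Tctex-type light chain on chromosome 17 (6430112 to 6436293, plus strand, GRCm38), had 13.1, 14.1, 12.7, 17.2 and 16.4 RPM in KO, against 7.65 and 11.4 RPM in Control. All KO values were above both controls, which differed widely from each other (log2 fold change 0.59, SE 0.15, adjusted p = 0.171 by limma).

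In the authors' deposited table of 136 selected genes Dynlt1b was the 1 member present, with a log2 difference of 0.64 (KO minus Control), a fold of 1.56 and a corrected p of 0.0326. Dynlt1b has near-identical copies, Dynlt1a, Dynlt1c and Dynlt1f, on the same chromosome, and how the counting placed shared reads is not given in the sources used here, so its level is uncertain. Those copies had log2 fold changes of -0.04, -0.11 and -0.06, and none was above both controls. Without Control 1 the log2 fold change of Dynlt1b was 0.33, and without Control 2 it was 0.85.

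Among structural MAPs, Map2 (ENSMUSG00000015222.17, chromosome 1, 66175273 to 66442583, plus strand, GRCm38) came first by p. It encodes a MAP best known from the dendrites of neurons. Map2 had 82.6, 80.1, 77.9, 84.5 and 81.1 RPM in KO, against 99.3 and 105 RPM in Control. The KO libraries were within a narrow band below both controls, and the log2 fold change was -0.33 (SE 0.06, adjusted p = 0.0821 by limma). With 81.2 ± 2.50 RPM in KO and 102 ± 4.08 RPM in Control (SD, n = 5 and 2), it had the lowest p of the members below Control.

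The other 6 MAPs overlapped between the groups. Map1b had the highest level in RPM and per kilobase, at 259 ± 22.99 RPM in KO and 266 ± 35.3 RPM in Control. Map4, which binds microtubules in most cells, had 59.0 ± 3.47 RPM in KO and 60.9 ± 0.725 RPM in Control (SD, n = 5 and 2). Mapt, which encodes tau, had 22.8 ± 3.81 RPM in KO and 24.7 ± 1.07 RPM in Control.

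The end-binding proteins EB1, EB2 and EB3, encoded by Mapre1, Mapre2 and Mapre3, track growing plus ends and recruit other proteins there. Their log2 fold changes lay between -0.02 and 0.05, and the groups overlapped for all 3. Mapre2 had 77.4 ± 5.06 RPM in KO and 78.6 ± 2.37 RPM in Control (SD, n = 5 and 2). Of the 4 plus-end and lattice regulators, Clasp1, which stabilises microtubules at their ends and at the Golgi, had 29.2, 28.1, 29.4, 30.8 and 28.04 RPM in KO, against 34.3 and 33.2 RPM in Control. The groups did not overlap (log2 fold change -0.21, SE 0.07, adjusted p = 0.325 by limma). Clip1, Clasp2 and the polymerase Ckap5 had log2 fold changes of 0.04, 0.00 and -0.05 with overlap.

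Transcript length differed between the roles and moved with the fold change over the whole table. Longest annotated transcripts of the 12 alpha- and beta-tubulins ran from 1598 to 2840 bases, and those of the other 67 members had a median of 4920 bases. Over all genes tested, the median log2 fold change was 0.03 for transcripts of 1000 to 2000 bases, 0.02 for 2000 to 3000 bases and -0.11 for those over 8000 bases. In the longest class KO 5 had a median of -0.21 relative to the mean of the controls, and KO 4 had -0.02. Subtracting this trend in each library, an adjustment chosen after the data were seen, left a median of 0.37 over the alpha- and beta-tubulins, with 10 of 12 higher in KO.

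For long members the same adjustment moved values further. After it the log2 fold changes of Kif1b and Clasp1 were both -0.09, that of Kif1a was -0.14 and that of Dync1h1 was 0.04. Map2 stood at -0.27, Kif21b at -0.56 and Kif13a at -0.30.

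**Figure D4:**
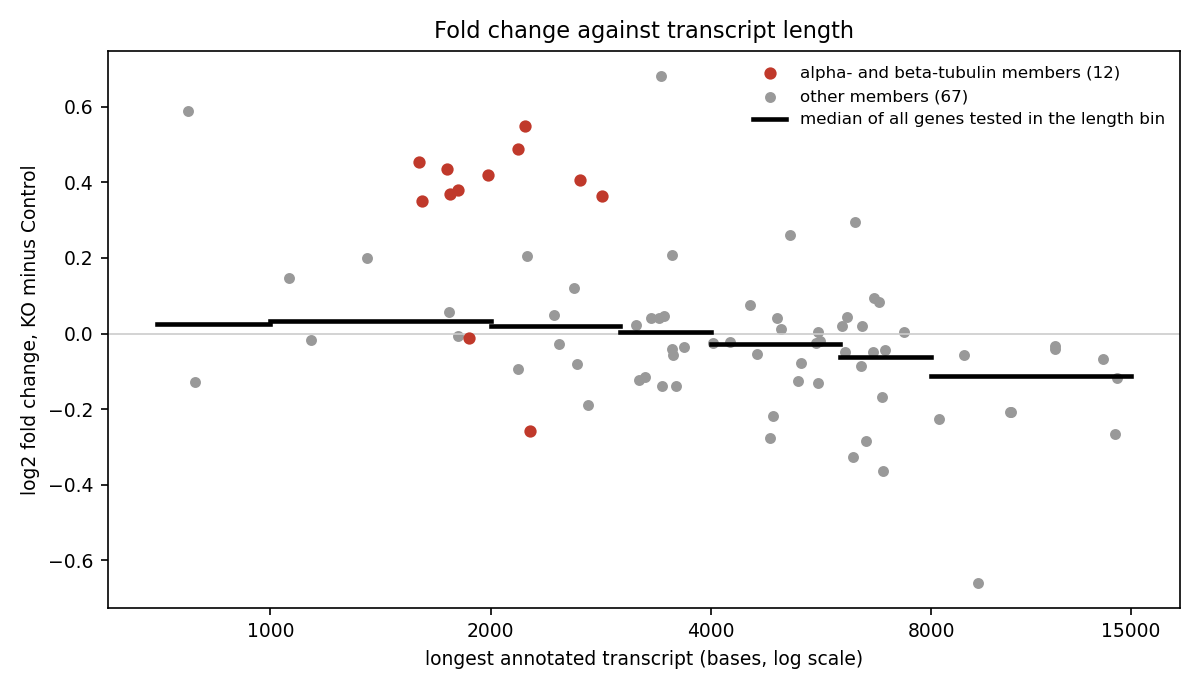
Log2 fold change (KO minus Control, on RPM + 1) of the 79 members against the length of the longest annotated transcript on a log scale, with tubulins in red and other members in grey. Black steps are medians of all genes tested in each length class and run from 0.03 at 1000 to 2000 bases to -0.11 over 8000 bases. The 10 red points between 0.35 and 0.55 lie above the step for their length.

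Genes outside the name rule were read from lists that were chosen with earlier results of these data known. Of 21 genes that fold tubulin, all tested, 0 passed an adjusted p of 0.05. Their median log2 fold change was 0.12, 19 were above 0, 8 lay above both controls and 0 below both, against medians and shares over all genes of -0.01, 6.75% and 8.41%. The 2 with the lowest p were the CCT subunits Cct7 and Cct5. Cct7 had 133, 129.7, 124, 132 and 134 RPM in KO, against 119 and 110.4 RPM in Control (log2 fold change 0.19, SE 0.06, adjusted p = 0.305 by limma). Cct5 had 111 ± 5.14 RPM in KO and 97.3 ± 3.99 RPM in Control (log2 fold change 0.19, adjusted p = 0.336 by limma). CCT also folds actin and other proteins, so its subunits do not belong to tubulin alone.

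Enzymes that modify or sever tubulin lay on both sides of Control. Of 27 listed, 23 were tested and 0 passed, with 4 above both controls and 4 below, against 6.75% and 8.41% of all genes. At an unadjusted limma p under 0.05 there were 1 higher and 4 lower in KO, against 4.64% and 6.16% of all genes. The 2 with the lowest p were Spast and Ttll7. Spast, which encodes the severing enzyme spastin, had 16.5, 19.2, 18.3, 17.8 and 19.5 RPM in KO, against 22.9 and 21.1 RPM in Control (log2 fold change -0.25, SE 0.09, adjusted p = 0.335 by limma). Ttll7, which encodes an enzyme that adds glutamates to tubulin, had 59.98, 58.3, 57.5, 62.5 and 60.2 RPM in KO, against 71.1 and 64.9 RPM in Control, without overlap (log2 fold change -0.18, SE 0.07, adjusted p = 0.351 by limma). Katna1, which encodes the catalytic subunit of the severing enzyme katanin, was the 1 gene of the list higher in KO at that unadjusted limit, with 18.4, 19.4, 16.03, 16.7 and 19.8 RPM in KO and 14.8 and 14.7 RPM in Control (log2 fold change 0.27, SE 0.10, adjusted p = 0.357 by limma). Vash1, whose product removes the terminal tyrosine of alpha-tubulin, had 3.86 ± 0.349 RPM in KO and 5.44 ± 1.25 RPM in Control, below both controls.

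Partners of the motors stayed close to 0. Dynactin subunits and dynein adaptors (20 of 21 tested, 0 passed) had a median of -0.04, with Hook3, a dynein adaptor, at 45.7 ± 3.17 RPM in KO and 52.2 ± 3.28 RPM in Control and Bicd1 at 31.9 ± 2.42 RPM in KO and 35.9 ± 1.01 RPM in Control. Kinesin light chains and cargo adaptors (18 of 18 tested, 0 passed) had a median of -0.03. The 2 with the lowest p there were Mapk8ip3, a scaffold for kinesin-1 and dynein, with 127 ± 6.29 RPM in KO and 116 ± 4.92 RPM in Control, and Cenpe, a mitotic kinesin, with 0.574 ± 0.221 RPM in KO and 0.927 ± 0.0103 RPM in Control (SD, n = 5 and 2).

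Of 29 other lattice and minus-end proteins, 27 were tested, 0 passed and the median was -0.01. Dcx, which encodes doublecortin, a MAP of migrating neurons, had 8.12, 14.5, 11.7, 14.2 and 16.1 RPM in KO, against 29.2 and 24.1 RPM in Control. All KO values were well below both controls, with KO 1 the lowest, and the log2 fold change was -1.02 (SE 0.20, adjusted p = 0.0821 by limma). Summed Schwann cell and neuron markers overlapped between the groups, at 49.8 to 60.4 RPM in KO and 53.1 and 59.4 RPM in Control. Tpx2, a spindle protein, had 0.464 ± 0.167 RPM in KO and 0.986 ± 0.566 RPM in Control (SD, n = 5 and 2). The groups overlapped for Tpx2, at 0.585 RPM in Control 1 and up to 0.623 RPM in KO. Summed markers of dividing cells lay below both controls, with 5 of 8 tested lower in KO and 3 higher. Their part in the Tpx2 values was not tested.

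**Figure D5:**
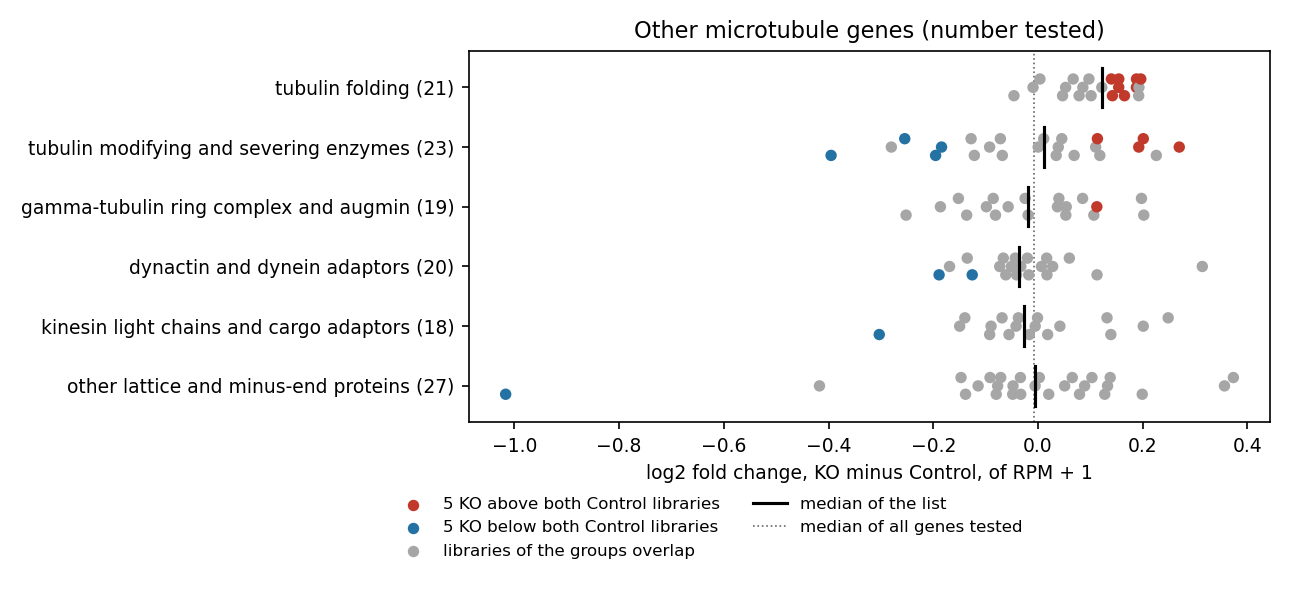
Log2 fold change (KO minus Control, on RPM + 1) of tested genes in 6 lists outside the 79 members, from 5 KO and 2 Control libraries. Red and blue points have all KO libraries above or below both controls, bars are list medians and the dotted line is the median of all genes tested. The tubulin folding list has its median at 0.12 and 8 red points, and the lowest blue point is Dcx at -1.02.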

How the data were processed

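RNA was taken from whole islets of 5 KO and 2 Control mice, polyA-selected and made into directional libraries, per the labels' protocols. The authors deposited values on a log2 scale for 34245 genes. Going by the values, that scale is log2 of depth-scaled reads (RPM): turned back to linear values, each library's numbers are whole multiples (within 0.02) of 1 step for 100% of values up to 1000 reads. A gene without reads is stored as 0.9 of a step. The authors also deposited a table of 136 genes with a fold (a ratio of Control over KO, inverted here) and a corrected p-value, without naming the test. HISAT2, DESeq2 and the build GRCm38 appear in the submitters' processing notes without version or role. No source used here gives the counting tool, its strand setting or its annotation.

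Genes needed 10 reads at the median depth (0.366 RPM) in 2 libraries, which left 16212. limma 3.58.1 in R 4.3.3, with an intensity trend, compared KO with Control on log2(RPM + 1), and a threshold of 0.05 was set on Benjamini-Hochberg adjusted p-values. The design had allowed for read counts or depth-scaled values, and depth-scaled values were found. The procedure was tested on simulated data. Alternatives covered scaling, filters, pseudocounts, voom on recovered reads, robust moderation, sex, an acinar score, the replicate number as a block and each library left out. Adjustments for transcript length and GC content were added after the data were seen.

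Exon and transcript lengths come from GENCODE M21 on GRCm38, and lengths were found for 97.4% of tested genes and 79 of 79 members. Start regions come from RefSeq. Isotype shares were compared with exact permutation tests over every split of the libraries in Python 3.11.15, and plots were drawn with matplotlib 3.10.9. The members, roles and lists were chosen with earlier results of these data known, so no test supports the choice. Genes named are Tubb4b, Tuba1b, per role the 3 with the highest mean RPM and the 2 with the lowest p, members at the level limit, members with no overlap of the groups and an unadjusted p under 0.05, and 2 genes per other list. Other names were chosen after their values were seen. Nothing in the labels says whether mice shared litters, so p-values measure only the spread between these libraries. Limits from counts cover counting error only.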

Additional observations from a re-analysis of the deposited data

Results flagged for a closer look

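Kif1a, the kinesin-3 motor, was singled out within the KO group because KO 4 (236 RPM) stood far from the other 4 KO libraries, which lay at 196 to 199.97 RPM, with 229 and 252 RPM in Control. The gap between KO 4 and the next library made up 0.898 of the whole range, above the limit of 0.71 for 5 libraries. Among 47 members examined in this way it was the 1 that passed, and chance alone gives about 1 in 20. Without KO 4 the log2 fold change of Kif1a was -0.28.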

How the results depend on the processing

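The 10 tubulins above both controls kept their direction under each alternative. Leaving out libraries could not reverse it, since each KO library lay above both controls for these genes. In fits that kept both controls, their limma adjusted p stayed above 0.05 except with robust moderation. Genes called over the whole table numbered 10, against 4 with no filter, 19 with median-of-ratios scaling, 42 with robust moderation, 3 with sex as a covariate, 0 with the acinar score (1196 at an unadjusted p under 0.05), and 47 without KO 2 and KO 3. Members called were 0, but 4 with robust moderation. Leaving out 1 library gave 2 to 120 genes and 0 to 1 member, with the 120 without Control 1, the 2 without KO 4 or without Control 2, and 3 without KO 3. The cause was not tested.

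Role medians that moved were those of mitotic kinesins (-0.079 as reported), at -0.031 with the 1 RPM filter, -0.0967 when scaled to reads in listed genes, -0.16 with voom, 0.023 after adjusting for the acinar score, -0.10 with the replicate block, -0.12 without KO 2 and KO 3, -0.041 with length and -0.044 with GC adjustment. End-binding proteins had 0.10 with the replicate block. Ciliary and other kinesins had 0.031 without KO 2 and KO 3 and 0.024 with length adjustment, which gave 0.032 for plus-end regulators and 0.026 for transport kinesins. With 1 library left out, medians ran from -0.23 to 0.020 for mitotic and -0.11 to 0.019 for transport kinesins, -0.12 to 0.065 for dynein, -0.073 to 0.12 for gamma-tubulins, -0.083 to 0.039 for plus-end regulators, -0.16 to 0.29 for stathmins and -0.17 to 0.0032 for MAPs. The Tuba1b share difference ran from -0.62 to 2.11 points, below 0 without Control 1.

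Members near 0 changed sign. Scaled to reads in listed genes, Clasp2 was at -0.014 and Mapre1 at -0.013, and with median-of-ratios scaling Tubg1 was at 0.0014. With sex as a covariate or males alone they were Clasp2 at -0.029, Clip1 -0.0051, Kif12 -0.080, Kif20a 0.0088, Kif5b -0.041, Mapre1 -0.060, Mapre2 0.016, Mapre3 -0.021, Stmn3 0.056 and Tubg1 0.067. With the acinar score they were Ckap5 at 0.0058, Clasp2 -0.066, Kif1bp 0.0076, Kif20a 0.049, Kif28 -0.031, Kif5b -0.046, Map4 0.030, Mapre1 -0.023, Mapre2 0.074, Stmn2 -0.13, Stmn3 0.11, Tubg1 0.18 and Tubg2 -0.16. Without KO 2 and KO 3 they were Clasp2 at -0.011, Mapre2 0.0036 and Tubg1 0.052, and with length adjustment Ckap5 at 0.015, Dync1h1 0.040, Map1b 0.093 and Map4 0.0060. With 1 library left out the ranges were -0.11 to 0.12 for Clasp2, -0.035 to 0.12 for Clip1, -0.064 to 0.012 for Dynll2, -0.100 to 0.18 for Kif12, -0.11 to 0.038 for Kif20a, -0.18 to 0.020 for Kif2a, -0.11 to 0.15 for Kif5b, -0.17 to 0.095 for Map1b, -0.039 to 0.049 for Mapre1, -0.054 to 0.0064 for Mapre2, -0.0093 to 0.11 for Mapre3, -0.16 to 0.45 for Stmn1, -0.33 to 0.29 for Stmn3, -0.048 to 0.046 for Tubg1 and -0.16 to 0.27 for Tubg2.

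The groups share replicate numbers 1 and 2, which the labels do not tie to litters or days. Correlations of deviations were -0.0992 and -0.24 for the same-numbered pairs, so the numbers were not taken as pairing mice. With the replicate block 11 genes and 0 members were called, and the 12 tubulins had a median of 0.38. Crossing the 2 numbers was not tried, since only 2 of 5 KO libraries have a partner. Kif18a rests on 5 to 22 reads per library, and no detection limit was computed at that depth.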

Other observations

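Other genes tied to tubulin or to the cytoskeleton, chosen after their values were seen, are given as values. Ttc5, whose product takes part in tubulin mRNA decay, had 13.5 ± 1.55 RPM in KO and 13.3 ± 2.10 RPM in Control (SD, n = 5 and 2). Actb, one of the main actin genes, had 336 ± 19.6 RPM in KO and 316 ± 45.2 RPM in Control, with overlapping groups. Actg1, the other main actin gene, had 340, 414, 362, 391 and 365 RPM in KO, against 276 and 251 RPM in Control, without overlap (log2 fold change 0.50, SE 0.09, adjusted p = 0.0613 by limma). On log2(RPM + 1), that difference is larger than those of 9 of the 10 tubulins above both controls. By ratio of means Actg1 had 1.42, below Tubb2b at 1.48 and Tubb4a at 1.61. The adjusted p of Actg1 is below that of every member. The keratin gene Krt18 had 256, 269, 256, 228 and 219 RPM in KO, against 179 and 171 RPM in Control, without overlap (log2 fold change 0.48, SE 0.09, adjusted p = 0.0643 by limma). Krt8, its usual partner in the filament, had 334, 374, 358, 298 and 292 RPM in KO, against 201 and 226 RPM in Control, also without overlap (log2 fold change 0.63, SE 0.10, adjusted p = 0.0541 by limma).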
